A study of Mus musculus with 4 samples.

Results

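Lower glycolysis enzymes carry glucose carbon from fructose bisphosphate to pyruvate, and 9 mouse genes for them were followed through the cell types of the embryonic knee region. They are Aldoa and Aldoc (aldolases), Tpi1 (triose phosphate isomerase), Gapdh (glyceraldehyde phosphate dehydrogenase), Pgk1 (phosphoglycerate kinase), Pgam1 (phosphoglycerate mutase), Eno1 and Eno2 (enolases) and Pkm (pyruvate kinase). The members were taken by name, as the listed genes from aldolase to pyruvate kinase that were measured in all 4 libraries, and make up 9 of 32285 annotated genes. Every step from aldolase to pyruvate kinase is shared by all cells that break down glucose, and the steps at phosphoglycerate kinase and pyruvate kinase yield ATP. Cartilage has no blood vessels, and its cells are known for a high use of glycolysis. Many genes of the pathway are targets of hypoxia-inducible factor (HIF).

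The study deleted the glucose transporters Glut1 and Glut3 in limb mesenchyme to ask what glucose uptake does for the forming joint. Single-cell 3' RNA libraries (10x Genomics) were made from hindlimb cartilage anlagen at the presumptive knee, freed with collagenase D. There was 1 library per group and 4 groups: a control without Cre at E13.5, a control without Cre at E14.5, Prx1Cre;Glut1f/f;Glut3f/+ at E14.5 (here the Glut3f/+ mutant), and Prx1Cre;Glut1f/f;Glut3f/f at E14.5 (here DCKO). Prx1Cre (Prx1cre in the labels) acts in limb mesenchyme, the source of cartilage, joint, tendon and bone-forming cells, and not in blood, vessel or muscle cells.

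Where 4 values follow one another below, they are for the control at E13.5, the control at E14.5, the Glut3f/+ mutant and DCKO, in that order. The libraries held 12769, 9707, 11690 and 11602 barcodes with 100344565, 84188147, 97110697 and 91574038 UMIs. Kept cells numbered 12446, 9305, 11264 and 11305, with median UMIs of 6176.5, 7279, 6757 and 6379 per cell. The 9 members took up 0.482%, 0.490%, 0.543% and 0.593% of the UMIs of kept cells. How many embryos were pooled is not given in the sources used, nor is whether the controls, labelled WT, carried floxed alleles. With 1 library per group, animal-to-animal spread was not measured, so the intervals printed here are 95% intervals of counting error only.

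The labels call the tissue of every library interzone, the strip of cells that becomes the joint. Cells gated as Gdf5-positive, with at least 2 UMIs of this marker of the strip and no place in a non-mesenchymal class, numbered 1429, 583, 611 and 222 among kept cells. Most cells of each library thus lie outside this gate. Slc2a1, which encodes Glut1, went against the labels: over all mesenchymal cells it stood at 50.05, 67.3, 362 and 437 CPM, with the high values in the libraries labelled as lacking it. Slc2a3, which encodes Glut3, stood at 5.24, 3.49, 4.36 and 2.56 CPM. The deleted parts of these genes are not given in the sources used and 3' tags may lie outside them, so these counts check neither genotype. Slc2a1 was also higher in myogenic cells of the mutant libraries, where Prx1Cre does not act (28.7, 26.2, 58.2 and 72.4 CPM). Chondrocyte markers summed to 515, 923, 1637 and 890.1 CPM in the same cells. Ambient RNA was not removed, and its part was not tested. Every mutant value below is for a library as labelled, and stage comparisons inside one library do not depend on its genotype label. Between 24 and 37 barcodes were shared by any pair of libraries.

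The sexes of the embryos differed between libraries. Cells with Xist UMIs made up 64.7%, 0.172%, 92.2% and 91.2%, and cells with Y-linked UMIs 18.4%, 65.9%, 0.0355% and 0.0265%. The E14.5 control therefore looks male and both mutants female, and in these comparisons genotype and sex cannot be told apart. Pgk1 lies on the X chromosome. Within the mixed E13.5 library, log2 of Pgk1 in 1754 mesenchymal cells with Y-linked UMIs over 7162 with Xist was -0.08 (-0.13 to -0.04). Eno1 gave -0.03 (-0.08 to 0.02) and Aldoa -0.06 (-0.10 to -0.02) between the same cells. Single types differed in sign: Gdf5-positive cells gave 0.34 (0.22 to 0.45) for Eno1 and 0.32 (0.23 to 0.41) for Aldoa, and Sfrp2-positive cells -0.44 (-0.61 to -0.27) and -0.13 (-0.26 to -0.01). Aldoc in matrix-rich cells gave 1.68 (0.76 to 2.57), on 20 and 26 UMIs.

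Cell types were gated on marker UMIs in single cells. Chondrocytes had at least 10 Col2a1 UMIs and at least 4 of 7 other cartilage genes with no Gdf5. They were split into immature cells (no Matn1, Ihh or Col10a1), matrix-rich cells (at least 5 Matn1 UMIs) and late cells (at least 2 UMIs of Ihh or Col10a1, the prehypertrophic and hypertrophic stages). Immature cells numbered 502, 562, 604 and 906, matrix-rich cells 586, 3398, 3115 and 3582, and late cells 570, 172, 269 and 365. Sfrp2-positive mesenchyme gave 1784, 896, 1083 and 817 cells and myogenic cells 651, 229, 316 and 72. Genes that took no part in the gates were read to check them. Panx3, a late-stage gene, had 234, 223, 274 and 170.1 CPM in late cells and 4.13, 0.702, 2.87 and 1.04 in immature cells. Osr2, a joint gene, had 409.6, 254, 204 and 111 CPM in Gdf5-positive cells against 90.7, 93.8, 77.8 and 36.8 in immature cells.

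All levels are CPM, the UMIs of a gene per 1000000 UMIs summed over the cells of a type. A 3' UMI counts molecules, so CPM is not per gene length. Levels printed without an interval have theirs drawn in the figure of levels. A member is called, and said to rise or fall, when it differed at least 1.5-fold with at least 20 UMIs in one of the 2 groups. The percent of all genes called by the same rule is given beside each count of members. Where a group held 0 UMIs of a gene, its value was set to a floor of 3 counts.

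Summed over the 9 members, the pathway was highest in matrix-rich chondrocytes at E13.5 and in late chondrocytes of each E14.5 library. Late cells held 5895, 6147, 7061 and 7486 CPM, matrix-rich cells 6448, 5529, 6605 and 6737 CPM and immature cells 5462, 4877, 6025 and 5102 CPM. Gdf5-positive cells went from 6216 CPM at E13.5 to 4665, 4646 and 3998 CPM in the E14.5 libraries, above the late cells of the same library only at E13.5. Sfrp2-positive mesenchyme held 3818, 3641, 3091 and 3317 CPM and myogenic cells 4889, 4689, 5416 and 4871 CPM. Myogenic cells lay above the Gdf5-positive cells in both mutants. In the E14.5 control the intervals of these types overlapped (4615 to 4763 and 4606 to 4725). Figure panels for each enzyme show that this order was not shared by all members.

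**Figure D1:**
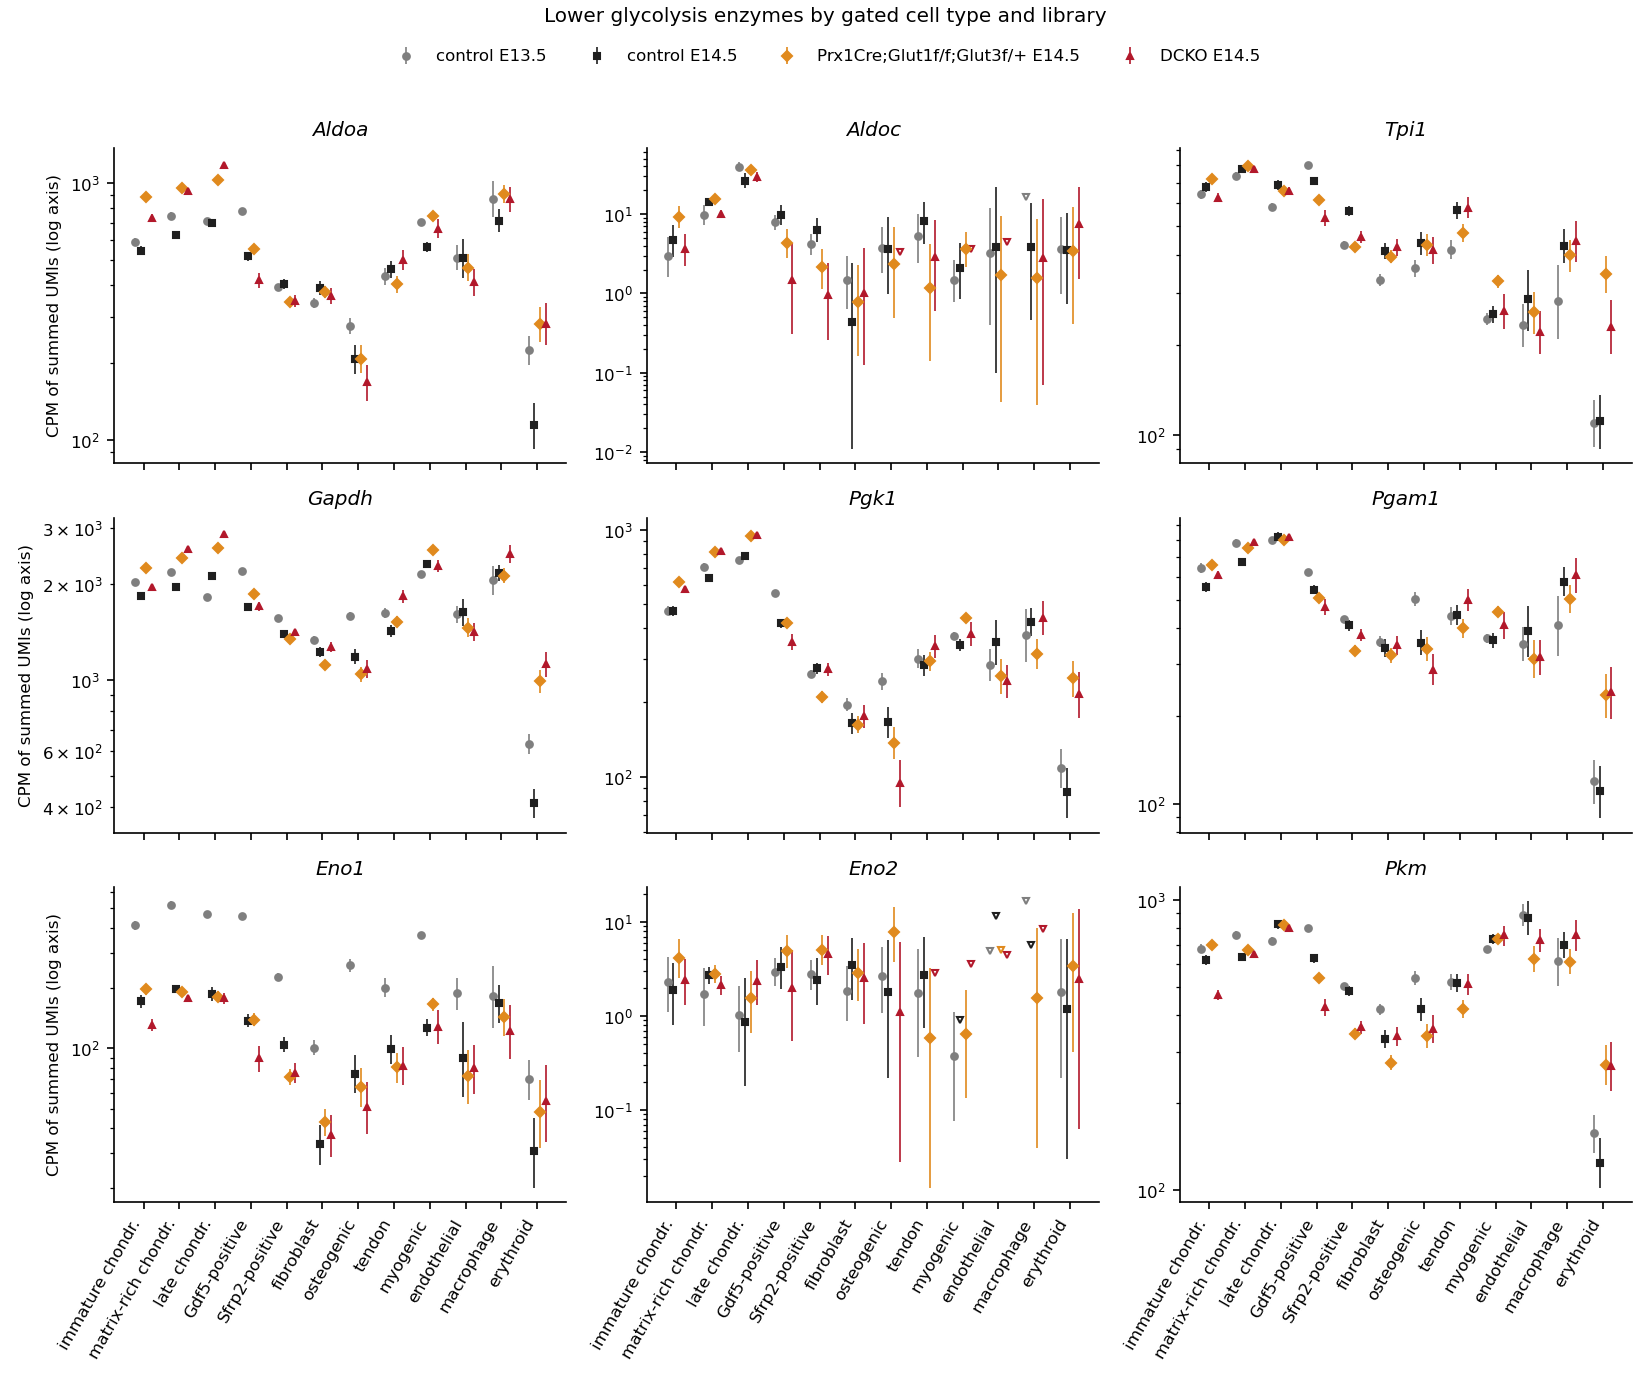
Level of each of the 9 enzymes in 12 gated cell types of the 4 libraries, in CPM on a log axis with 95% intervals; open triangles mark the floor of 3 counts where no UMI was seen. Aldoc is concentrated in late chondrocytes, and Eno1 stands apart between the E13.5 control and the other libraries.

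Aldolase cleaves fructose bisphosphate into a pair of triose phosphates. Aldoa (ENSMUSG00000030695, chr7:126795234-126800751 of GRCm38) is the main aldolase gene of these cells. Immature cells held 589 (567 to 612), 545 (523 to 568), 887 (859.6 to 915) and 734 (712 to 756) CPM. In matrix-rich cells it stood at 746, 630.1, 956 and 930.2 CPM and in late cells at 709, 699.5, 1029 and 1177 CPM. Gdf5-positive cells went from 777 (761 to 793) CPM at E13.5 to 419 (391 to 448) in DCKO. Macrophages held the highest level in both controls (868, 714, 911 and 868 CPM), on 29 and 60 cells there, and late chondrocytes in both mutants. In the E14.5 control the late-cell level of 699.5 CPM lay close below that of macrophages. Of the 11 neighbouring pairs of types in the order of levels, 7, 6, 5 and 6 had overlapping intervals.

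Aldoc (ENSMUSG00000017390, chr11:78322968-78327781) is the minor aldolase gene and the member most tied to a cell type. Immature cells held 2.99 (1.59 to 5.10), 4.68 (2.86 to 7.23), 9.26 (6.67 to 12.5) and 3.63 (2.25 to 5.55) CPM. Late cells held 39.8 (35.3 to 44.9), 26.5 (21.4 to 32.5), 36.2 (31.2 to 41.8) and 29.5 (25.5 to 34.1) CPM, the highest level of all 12 types in each library. Matrix-rich cells lay between, at 9.84, 14.3, 15.3 and 10.04 CPM. It was found in 2.39, 2.85, 5.79 and 2.21% of immature cells and 32.3, 37.2, 37.9 and 29.6% of late cells. After thinning each cell to 3000 UMIs the shares were 1.22, 1.099, 2.74 and 1.05% and 12.7, 7.60, 7.84 and 5.21%.

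Triose phosphate isomerase interconverts the products of aldolase. Tpi1 (ENSMUSG00000023456, chr6:124810586-124814296) was not called between the gated chondrocyte stages of any library. It stood at 639, 676, 719.9 and 624 CPM in immature, 738, 778, 797 and 779 in matrix-rich and 582, 687, 655 and 654 in late cells. The highest level was in Gdf5-positive cells at E13.5 (801 CPM (785 to 818)) and in matrix-rich cells of the other libraries. Myogenic cells held 245, 254, 327 and 261 CPM, well below every chondrocyte stage.

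Glyceraldehyde phosphate dehydrogenase oxidises the triose and makes NADH. Gapdh (ENSMUSG00000057666, chr6:125161715-125166467) was the most abundant member in every library. It held 2026, 1833, 2236 and 1958 CPM in immature, 2179.7, 1962, 2404 and 2579 in matrix-rich and 1817, 2116, 2588 and 2869 in late cells. Myogenic cells were as rich in it, at 2150.4, 2303, 2548 and 2277 CPM, and were the highest type in the E14.5 control. Erythroid cells held the least in the controls (631 and 411 CPM).

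Phosphoglycerate kinase makes ATP from the product of Gapdh. Pgk1 (ENSMUSG00000062070, chrX:106187100-106203699) was highest in late chondrocytes in all 4 libraries. Its level was 470.3 (450.1 to 491), 470.1 (449.7 to 491), 617 (595 to 641) and 573 (554 to 593) CPM in immature cells and 753 (733 to 774), 785 (755 to 815), 948 (921 to 975) and 957 (933 to 981) CPM in late cells. Matrix-rich cells held 709, 637, 815 and 820.5 CPM. In Sfrp2-positive mesenchyme it stood at 262, 275, 211 and 272 CPM and in osteogenic cells at 243, 166, 137 and 94.2 CPM. Pgk1 thus lay higher in each chondrocyte stage than in Sfrp2-positive mesenchyme or osteogenic cells of the same library.

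Phosphoglycerate mutase moves the phosphate within phosphoglycerate. Pgam1 (ENSMUSG00000011752, chr19:41911923-41918660) was also highest in late cells in all 4 libraries, at 801, 823, 802 and 819.8 CPM. Immature cells held 643, 553, 656 and 606 CPM and matrix-rich cells 785, 671, 753 and 786 CPM. Its late-cell level was nearly the same in all libraries, and 7 or 8 of the 11 neighbouring pairs of types overlapped.

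Enolase removes water to give phosphoenolpyruvate. Eno1 (ENSMUSG00000063524, chr4:150236721-150248879) separated the E13.5 library from the others in most types. Immature cells held 410.4 (392 to 429.8), 172 (159.5 to 185), 197 (185 to 211) and 131 (122 to 140.4) CPM. Matrix-rich cells held 522, 197, 192 and 179 CPM, late cells 468, 187, 181 and 177 CPM and Gdf5-positive cells 459, 138, 139 and 89.0 CPM. At E13.5 the matrix-rich cells led the order, with 4 of 11 neighbouring pairs overlapping. At E14.5 the types lay closer, with 9, 10 and 10 pairs overlapping in the control, the Glut3f/+ mutant and DCKO.

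Eno2 (ENSMUSG00000004267, chr6:124760053-124769673), the enolase best known from neurons, was close to absent. All mesenchymal cells held 2.20, 2.59, 3.18 and 2.48 CPM, and all 11 neighbouring pairs of types overlapped in each library. No type can be named as its site from these counts.

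Pyruvate kinase makes the last ATP of the pathway. Pkm (ENSMUSG00000032294, chr9:59656368-59679375) was highest in endothelial cells of the controls (888 and 866 CPM) and in late chondrocytes of the mutants (821 and 799.6 CPM). Immature cells held 679 (654 to 703), 621 (598 to 645), 698 (674 to 723) and 469.8 (452 to 488) CPM, the least in DCKO. Its splice forms share the 3' end and were not told apart.

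Other genes for the same steps were nearly silent outside muscle. In myogenic cells Eno3 stood at 135, 66.0, 74.1 and 55.5 CPM and Pgam2 at 164, 57.3, 67.5 and 39.8 CPM. Eno1b, a near-identical copy of Eno1, held 7.91, 4.76, 4.25 and 6.94 CPM over all mesenchymal cells. Reads shared by such copies can be given to either gene or left out of the counts, and which happened was not tested. A sum of Eno1 and Eno1b would not bring back reads left out. Of the UMIs counted for the pair, Eno1 held nearly all.

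To follow the enzymes along cartilage maturation, matrix-rich cells were first compared with immature cells of the same library. The question is whether the pathway grows as chondrocytes lay down matrix. Most members lay slightly higher in matrix-rich cells, and few passed 1.5-fold. At E13.5, 2 of 8 members were called, with 15.1% of all genes called. In the E14.5 control 1 of 9 was called, against 23.3% of all genes. The Glut3f/+ mutant had 1 of 9 (20.8% of all genes) and DCKO 1 of 9 (24.1%). The members' median log2 was 0.31, 0.21, 0.11 and 0.40, while the all-gene median was -0.07, -0.08, -0.06 and -0.12. TMM scaling raised the all-gene median by up to 0.18 in this comparison, in DCKO.

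Among the aldolases, Aldoa differed by log2 0.34, 0.21, 0.11 and 0.34 between matrix-rich and immature cells. Aldoc rose in all 4 libraries, by 1.72 (0.82 to 2.72), 1.61 (0.97 to 2.33), 0.73 (0.27 to 1.22) and 1.47 (0.83 to 2.18). In the Glut3f/+ mutant the Aldoc call ended at 0.06 after thinning to 3000 UMIs and at 0.55 with stricter gates. Against all other chondrocytes, matrix-rich cells had Aldoc at -1.03 at E13.5, -0.31 in the Glut3f/+ mutant and -0.42 in DCKO. Tpi1 stayed within 0.15 to 0.32 and Gapdh within 0.10 to 0.40. Pgk1 rose at E13.5 only, by 0.59 (0.51 to 0.67), and lay at 0.44, 0.40 and 0.52 in the other libraries. The E13.5 value is at the limit: as a mean of per-cell CPM it was 0.58. Pgam1 gave 0.29, 0.28, 0.20 and 0.37. Eno1 (-0.04 to 0.45) and Pkm (-0.06 to 0.47) were highest in DCKO and lowest in the Glut3f/+ mutant.

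Late cells were then compared with immature cells, to see whether the pathway grows further toward hypertrophy. Here the aldolase Aldoc and the kinase Pgk1 rose in every library, while the other members rose in DCKO or not at all. At E13.5, 2 of 8 members were called, with 32.1% of all genes called. The E14.5 control also had 2 of 8 (42.0% of all genes) and the Glut3f/+ mutant 2 of 8 (39.3%). DCKO had 4 of 8, against 48.1% of all genes, all of them up. All-gene medians were -0.12, -0.22, -0.14 and -0.29, and TMM scaling raised them by 0.16 to 0.33. A late cell carried more UMIs than an immature one, with medians of 10832, 19297, 18893 and 16042 against 7454.5, 6869.5, 6701.5 and 5610.5. Dissociation genes, which respond to enzyme digestion, summed to 1543, 3654, 1797 and 1861 CPM in late against 2054, 3632, 3659 and 3692 CPM in immature cells. The part of either was not tested.

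Aldoc showed the largest stage difference of any member: 13.3-fold, 5.67-fold, 3.91-fold and 8.14-fold more in late than in immature cells. On the log2 scale these were 3.74 (2.94 to 4.67), 2.503 (1.79 to 3.28), 1.97 (1.48 to 2.49) and 3.03 (2.37 to 3.75). The ratio stayed above 1.5-fold under every alternative, although with thinning or a minimum of 100 UMIs some libraries held too few UMIs of Aldoc for a call. Aldoa rose only in DCKO, by 0.68 (0.63 to 0.74), and lay at 0.27, 0.36 and 0.21 elsewhere. Thinning to 3000 UMIs brought the DCKO value to 0.47. Tpi1 stayed near 0, at -0.14, 0.02, -0.14 and 0.07. Gapdh gave -0.16, 0.21, 0.21 and 0.55.

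Pgk1 rose by 0.68 (0.61 to 0.75), 0.74 (0.66 to 0.82), 0.62 (0.55 to 0.69) and 0.74 (0.68 to 0.80) in late over immature cells. Thinned to 3000 UMIs per cell, it was 0.49, 0.71, 0.29 and 0.40, a call in the E14.5 control only. Against all other chondrocytes the rise was 0.35, 0.36, 0.27 and 0.27, and none of these is a call. Pgam1 gave 0.32, 0.57, 0.29 and 0.43, none of them called. Eno1 stayed between -0.12 and 0.44. Pkm rose in DCKO by 0.77 (0.70 to 0.84), where its immature level was the lowest, and was 0.41 after thinning.

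Finer bins, chosen after seeing the data, placed these changes along the series. With no Matn1, 1 to 4, 5 to 19 and at least 20 Matn1 UMIs and then Ihh without Col10a1, Aldoc at E13.5 went through 2.99, 4.64, 6.90, 23.6 and 36.9 CPM. In DCKO the same bins held 3.63, 5.02, 7.61, 12.3 and 31.9 CPM. Aldoc thus climbed up to the Ihh bin in both. Cells with both Ihh and Col10a1 held 60.1 (40.2 to 86.2) CPM at E13.5 on 29 UMIs, 25.5 (16.8 to 37.1) in the Glut3f/+ mutant on 27 and 15.6 (7.78 to 27.9) in DCKO on 11. The Ihh bin of the same libraries held 36.9 (32.1 to 42.2), 41.2 (34.9 to 48.2) and 31.9 (27.2 to 37.2) CPM, with overlapping intervals in each. Pgk1 at E13.5 went through 470.3, 575, 666, 910.4 and 738 CPM, with its peak in the bin before Ihh. The E14.5 control held 470.1, 451, 548, 697 and 788 CPM in the same bins, the Glut3f/+ mutant 617, 683, 789.8, 839 and 1074 and DCKO 573, 706, 793, 846 and 998, with the peak in the Ihh bin. Tpi1 at E13.5 held 639, 660.2, 699.9, 914 and 568 CPM, also with its peak before Ihh. At E13.5 Aldoa, Gapdh, Pgam1, Eno1 and Pkm were likewise highest in the bin before Ihh, which held 83 cells. Tpi1 peaked before Ihh in the E14.5 libraries as well. Its highest bins there held 811, 797 and 792 CPM, against 698, 741 and 702 CPM in the Ihh bin. In the few mutant cells with both Ihh and Col10a1 (52 and 39), every member but Aldoc and Eno2 was lower than in the Ihh bin of the same mutant, with intervals apart. Gapdh went from 2887 to 1907 CPM in the Glut3f/+ mutant and from 3018 to 2003 in DCKO. Pkm went from 943 to 522 and from 851 to 472, and Tpi1 from 741 to 428 and from 702 to 397. The 36 such cells at E13.5 held 1638 CPM of Gapdh and 592 of Tpi1, after 1828 and 568. Cells with more Matn1 also held more UMIs, and the part of that was not tested.

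**Figure D2:**
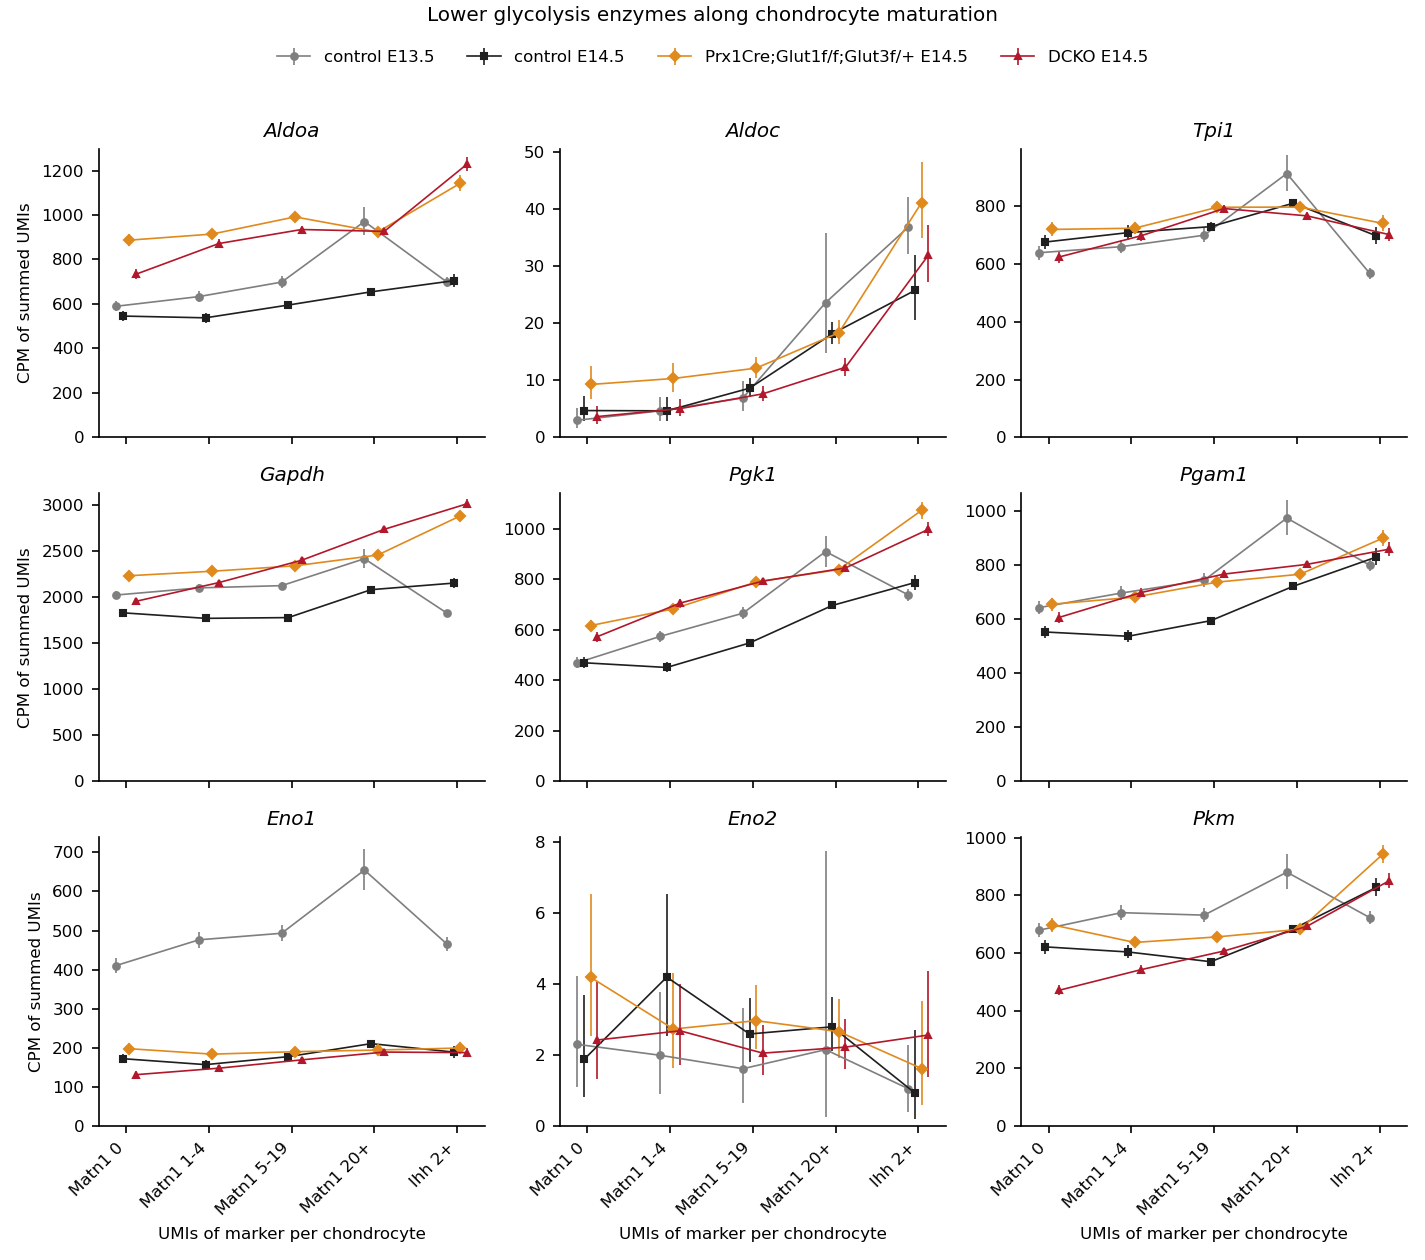
Level of each enzyme along chondrocyte stages, in CPM with 95% intervals, one line per library; the horizontal axis runs from no Matn1 through rising Matn1 UMIs to Ihh-positive cells. Aldoc is highest at the Ihh end of each library, and Pgk1 peaks there at E14.5 and one bin earlier at E13.5.

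Gdf5-positive cells were set against immature chondrocytes, to see how cells with this marker of the joint strip differ from cartilage. The members lay on the high side at E13.5 and on the low side in the mutants. At E13.5, 1 of 9 members was called, up, with 17.3% of all genes called. The E14.5 control had 1 of 8 called, up (18.1% of all genes). In the Glut3f/+ mutant 2 of 9 were called, both down (15.3%), and in DCKO 3 of 8, all down (16.0%). Their median log2 went 0.24, -0.05, -0.38 and -0.46, against all-gene medians of 0.02, 0.08, 0.08 and 0.06. TMM scaling lowered the all-gene median in DCKO, with a shift of -0.12.

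Aldoa moved from 0.40 (0.34 to 0.46) at E13.5 to -0.07 (-0.15 to 0.01) in the E14.5 control, and fell to -0.67 (-0.74 to -0.60) in the Glut3f/+ mutant and -0.81 (-0.92 to -0.70) in DCKO. With looser gates the mutant values were -0.42 and -0.46, below a call. Aldoc rose in the controls (1.40 (0.56 to 2.37) and 1.08 (0.30 to 1.90)) and fell in the Glut3f/+ mutant (-1.09 (-1.89 to -0.32)). Its DCKO value of -1.28 (-3.67 to 0.46) rests on 3 UMIs. These Aldoc directions did not hold under every setting: DCKO gave 0.77 with looser gates. Thinned cells held 2 Gdf5-positive UMIs of Aldoc in the E14.5 control and 0 in DCKO, too few to read. Against all other chondrocytes the controls gave -1.17 and -0.49. Tpi1 gave 0.33, 0.07, -0.23 and -0.22, and Gapdh 0.11, -0.11, -0.26 and -0.20. Pgk1 fell in DCKO, at -0.70 (-0.82 to -0.58), and was 0.23, -0.17 and -0.56 in the others. The DCKO value was -0.33 with looser gates. Eno1 ran from 0.16 at E13.5 to -0.55 in DCKO and Pkm from 0.24 to -0.14. Aldoa was thus called down in both mutants and in neither control, while Aldoc had the largest ratios on few UMIs.

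Marker and quality values differed between these groups as well. Chondrocyte markers in Gdf5-positive cells summed to 3111, 5611, 6992 and 7321 CPM, more at E14.5 than at E13.5. The dissociation genes summed to 3526, 4702, 4904 and 4149.8 CPM in Gdf5-positive cells, beside the immature values given above. The part of either was not tested.

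The controls were compared by age, E14.5 over E13.5, to see what a day of development does. Eno1 fell in every type counted, and the most abundant members were not called in any of them. In immature cells 2 of 8 members were called, with 21.2% of all genes called. Matrix-rich cells had 2 of 9 (24.1% of all genes) and late cells 2 of 8 (27.4%). Gdf5-positive cells had 1 of 9 (20.5%), Sfrp2-positive cells 2 of 9 (20.8%) and myogenic cells 1 of 7 (19.8%). Age goes with sex here, since the E13.5 library is mixed and the E14.5 control looks male. TMM scaling raised the all-gene median by 0.15 in matrix-rich and 0.16 in late cells.

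Eno1 fell along all chondrocyte stages, with log2 of -1.26 (-1.38 to -1.13) in immature, -1.41 (-1.47 to -1.34) in matrix-rich and -1.33 (-1.45 to -1.20) in late cells. In Gdf5-positive cells the value was -1.74 (-1.85 to -1.62), a level 3.33-fold higher at E13.5. Sfrp2-positive cells gave -1.13 (-1.26 to -0.99) and myogenic cells -1.53 (-1.68 to -1.38). Fibroblasts (-1.60), osteogenic (-1.80), tendon (-1.02), endothelial (-1.07) and erythroid cells (-1.19) fell as well, and only macrophages did not (-0.12 (-0.72 to 0.50)). Its copy Eno1b fell in 5 of the 6 types counted, all but myogenic cells. Differences between the libraries in preparation or in the assignment of reads to copies cannot be told apart from age. In erythroid cells globins went from 631126 to 767819 CPM, which lowers the CPM of all other genes there, and the part of this in the erythroid falls was not tested. No alternative ended an Eno1 call, and against E13.5 cells with Y-linked UMIs alone, an alternative chosen after seeing the data, it was -1.37, -1.37 and -1.38 along the chondrocyte stages, -2.03 in Gdf5-positive, -0.76 in Sfrp2-positive and -1.50 in myogenic cells. Of 9592 genes tested in all 6 types, 101 (1.05%) fell in each of them and 60 (0.626%) rose, and Eno1 was the only member among either.

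No other member fell in all 6 types counted. Aldoa gave -0.11, -0.24 and -0.02 along the chondrocyte stages and -0.58 (-0.65 to -0.52) in Gdf5-positive cells, just short of a call. Against E13.5 cells with Y-linked UMIs alone the Gdf5-positive value was -0.85, past that limit. In matrix-rich cells Aldoc was 0.54 over the whole E13.5 library and -0.65 over its cells with Y-linked UMIs, so its sign there depends on which E13.5 cells are taken. Aldoc rose in immature cells by 0.65 (-0.43 to 1.78) and Sfrp2-positive cells by 0.61 (-0.07 to 1.27) with intervals across 0, and fell in late cells, at -0.59 (-0.94 to -0.24). The Sfrp2-positive value turned to -0.77 with looser gates, on 8 and 28 UMIs, and thinned immature cells held 5 and 4 UMIs, too few to read. Tpi1 lay between -0.18 in Gdf5-positive and 0.37 in Sfrp2-positive cells. Gapdh (-0.37 to 0.22), Pgk1 (-0.40 to 0.07) and Pkm (-0.35 to 0.19) were each lowest in Gdf5-positive cells among the 6 types counted. Pgam1 stayed within -0.23 to 0.04. Eno2 rose in matrix-rich cells by 0.67 (-0.32 to 1.85), also across 0, from 1.70 to 2.71 CPM. Outside these types, erythroid cells had Aldoa at -0.97 and Gapdh at -0.62, both falls beside the globin values given above, and osteogenic cells had Pgk1 at -0.55.

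Mutants were compared with the E14.5 control to ask how the pathway reads when glucose entry is targeted. In the Glut3f/+ mutant the calls were of Aldoa, Aldoc and Eno2. Aldoa was up in immature and matrix-rich cells, and Aldoc was up in immature and down in Gdf5-positive and Sfrp2-positive cells. Immature cells had 2 of 8 members called, with 11.4% of all genes called, and matrix-rich cells 1 of 9 (9.74% of all genes). Late cells had 0 of 8 (16.1%), Gdf5-positive cells 1 of 9 (10.9%), Sfrp2-positive cells 2 of 9 (7.66%) and myogenic cells 0 of 7 (9.13%). All members lay above 0 in immature cells, at a median of 0.27 against -0.12 for all genes. TMM scaling raised the all-gene median by 0.12 in immature and in Gdf5-positive cells.

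**Figure D3:**
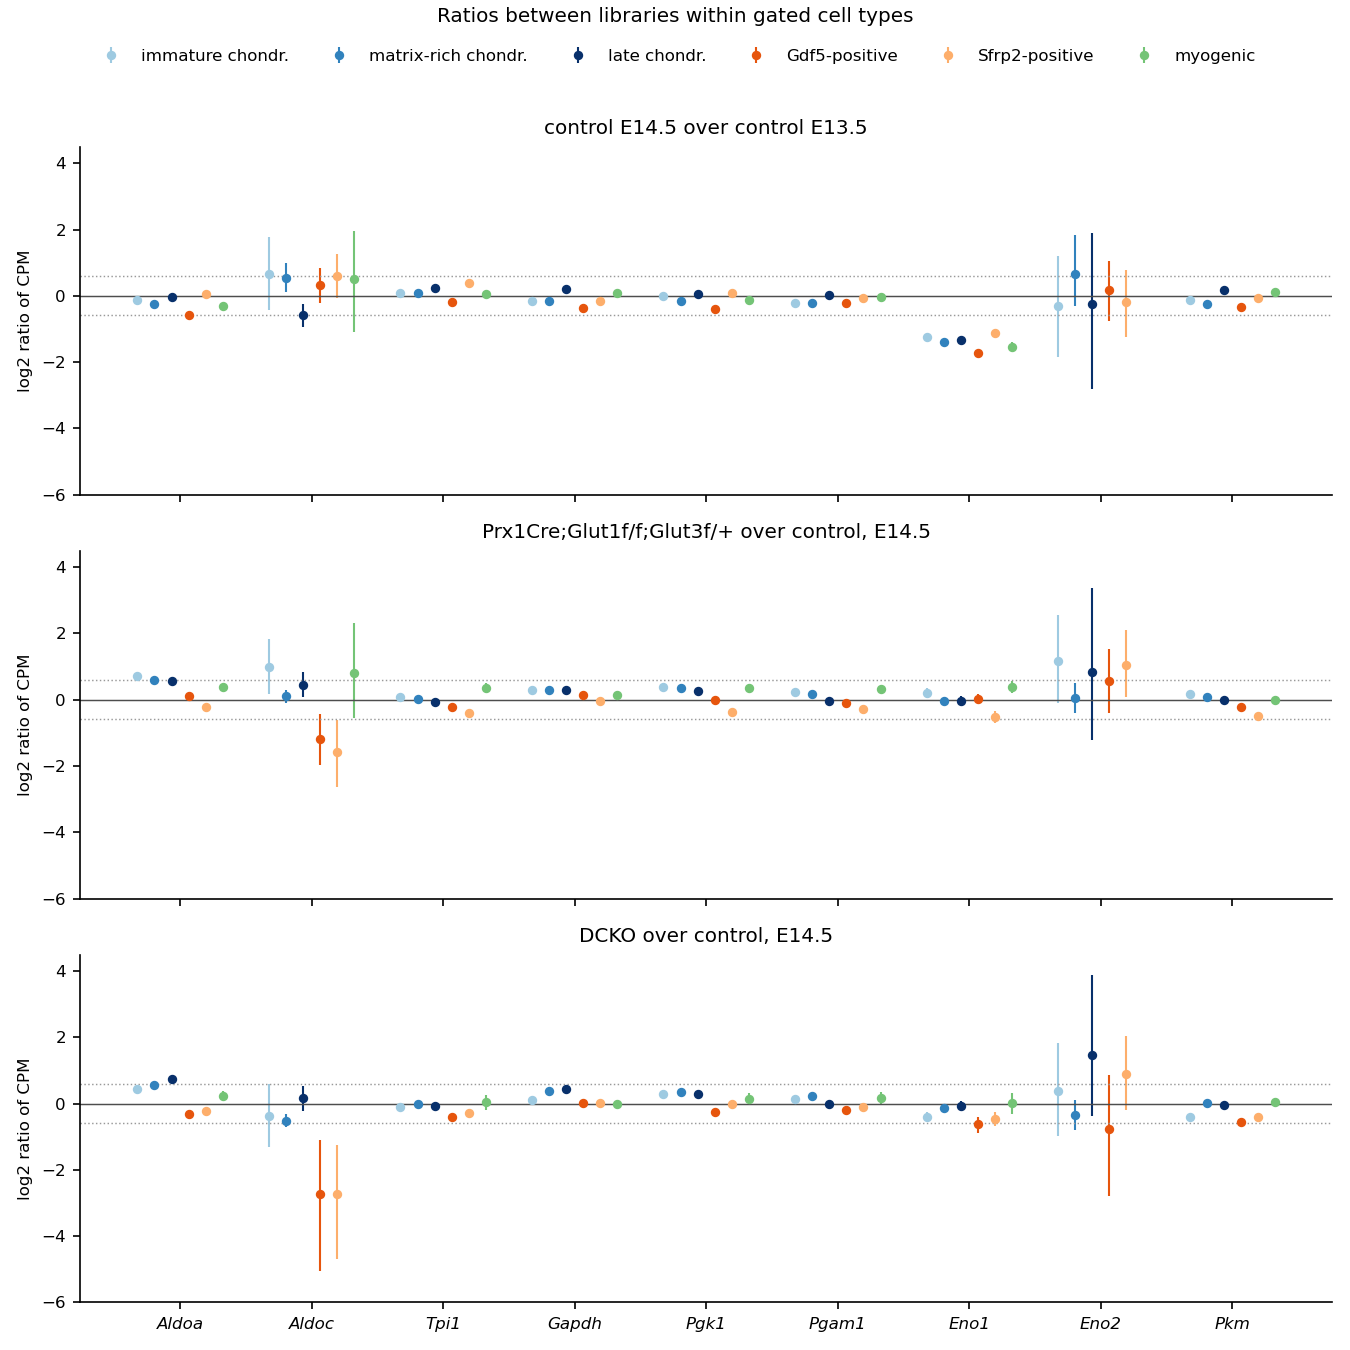
Log2 ratio of each enzyme by age and for each mutant over the E14.5 control, with 95% intervals, in 6 cell types; dotted lines mark 1.5-fold, and ratios with 0 UMIs in a group are not drawn. Eno1 lies low in the age panel, and Aldoa separates chondrocytes from the other types in both mutant panels.

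Aldoa rose in immature cells by 0.70 (0.63 to 0.78) and in matrix-rich cells by 0.60 (0.58 to 0.63), and lay at 0.56 (0.49 to 0.63) in late cells. It was 0.10 in Gdf5-positive, -0.23 in Sfrp2-positive and 0.39 in myogenic cells. The calls are narrow: thinned to 3000 UMIs, immature cells gave 0.50 and matrix-rich cells 0.36. Aldoc rose in immature cells by 0.98 (0.18 to 1.83), from 4.68 to 9.26 CPM, and fell in Gdf5-positive (-1.18 (-1.96 to -0.44)) and Sfrp2-positive cells (-1.58 (-2.63 to -0.62)). Thinned Gdf5-positive cells held 4 and 2 UMIs of Aldoc, too few to read. Tpi1 gave 0.09, 0.03 and -0.07 along the chondrocyte stages. Gapdh was 0.29, 0.29 and 0.29, and Pgk1 0.39, 0.36 and 0.27. Pgam1, Eno1 and Pkm stayed within -0.05 to 0.25 in chondrocytes. In Sfrp2-positive cells 8 of 9 members lay below 0, with Eno1 at -0.53 and Pkm at -0.49, and only Eno2 rose, by 1.06 (0.08 to 2.12).

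DCKO showed a rise of Aldoa in late cells and over all chondrocytes, and a fall of Aldoc and Eno1 in Gdf5-positive cells. Immature cells had 0 of 8 members called, with 13.52% of all genes called, matrix-rich cells 0 of 9 (17.9% of all genes) and late cells 1 of 8 (27.6%). Gdf5-positive cells had 2 of 8 (20.1%), Sfrp2-positive cells 1 of 8 (12.05%) and myogenic cells 0 of 7 (18.8%). The DCKO count of calls rose with thinning, stricter gates or no minimum of UMIs. It fell with a higher fold limit or minimum, as given under processing. TMM scaling raised the all-gene median by 0.15, 0.15 and 0.20 in immature, matrix-rich and late cells. No member was called in the same direction in all 6 types in either mutant.

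In DCKO Aldoa was 0.43 (0.36 to 0.50) in immature, 0.56 (0.54 to 0.59) in matrix-rich and 0.75 (0.68 to 0.82) in late cells, where it rose. Over all chondrocytes it rose by 0.61 (0.59 to 0.63), against 0.62 (0.60 to 0.64) in the Glut3f/+ mutant. The late value was 0.49 after thinning. Dissociation genes in late cells, given above, were lower in the mutants than in the E14.5 control, and their part was not tested. In Gdf5-positive cells Aldoa lay at -0.31 (-0.42 to -0.20), on the other side of 0. Aldoc fell in Gdf5-positive (-2.73 (-5.05 to -1.10), 3 UMIs) and Sfrp2-positive cells (-2.74 (-4.69 to -1.25), 4 UMIs), and myogenic cells held 0 UMIs of it. Tpi1 gave -0.12, 0.00 and -0.07 along the stages and -0.41 in Gdf5-positive cells. The Gapdh ratio was 0.10, 0.39 and 0.44 from immature to late cells, with no call.

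Pgk1 in DCKO was 0.29, 0.37 and 0.29 along the stages and -0.25 (-0.37 to -0.13) in Gdf5-positive cells. It fell in osteogenic cells, at -0.82 (-1.21 to -0.44). Pgam1 stayed within -0.20 to 0.23. Eno1 fell in Gdf5-positive cells, at -0.63 (-0.87 to -0.39), a call that ended at -0.22 with looser gates and -0.54 with TMM scaling. Pkm was -0.40 in immature cells, 0.03 in matrix-rich and -0.04 in late cells, and -0.56 in Gdf5-positive cells. Pkm ratios thus lay below 0 in early cartilage and Gdf5-positive cells and near 0 in mature cartilage, and none is a call.

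The mutants were last compared with each other, DCKO over the Glut3f/+ mutant, which asks what loss of the remaining Glut3 allele adds. No member rose, and those called were Aldoc and the enolases. Immature cells had 2 of 8 members called, both down, with 9.33% of all genes called. Matrix-rich cells had 1 of 9 (9.95% of all genes), late cells 0 of 8 (14.9%) and Gdf5-positive cells 3 of 9 (13.8%). Sfrp2-positive cells had 0 of 8 (8.85%) and myogenic cells 0 of 7 (20.4%). Both libraries look female. TMM scaling raised the all-gene median by 0.13 in late cells.

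Aldoc fell in immature cells (-1.35 (-2.18 to -0.56)) and matrix-rich cells (-0.61 (-0.81 to -0.41)), and the Gdf5-positive value of -1.54 (-3.92 to 0.18) rests on 3 DCKO UMIs. Aldoa was -0.27, -0.04 and 0.19 along the stages. Eno1 fell in immature cells (-0.59 (-0.73 to -0.45)) and in Gdf5-positive cells (-0.65 (-0.89 to -0.41)). With looser gates these were -0.38 and -0.20, both below a call. Pkm lay at -0.57 (-0.65 to -0.50) in immature cells, just short of one. Eno2 gave -1.31 (-3.29 to 0.22) in Gdf5-positive cells, from 4.92 to 1.99 CPM. After thinning to 3000 UMIs, Eno1 gave -0.34 and -0.22, Aldoc in Gdf5-positive cells held 0 DCKO UMIs, and 0 members were called between the mutants in any type counted.

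Genes around the pathway give these changes their setting. Of 17 tested HIF targets outside glycolysis, 11 rose in Glut3f/+ immature cells (11.4% of all genes called), 7 of 17 in matrix-rich (9.74%) and 7 of 16 in late cells (16.1%). DCKO had 9 of 17 (13.52%), 4 of 17 (17.9%) and 8 of 16 (27.6%) up in the same stages. In Gdf5-positive cells 2 of 17 rose in the Glut3f/+ mutant (10.9%) and 2 of 15 in DCKO (20.1%). Falls were 0, 0 and 1 along the stages in the Glut3f/+ mutant, 0, 1 and 1 in DCKO, and 1 in Gdf5-positive cells of each. Of upper glycolysis genes, 2 of 8 rose in Glut3f/+ immature cells, 2 of 11 in matrix-rich and 2 of 8 in late cells, and 0 fell. DCKO had 1 of 8 up in immature cells, 1 up and 1 down of 11 in matrix-rich and 1 up and 1 down of 8 in late cells. Hk2 was among those up in each Glut3f/+ stage, in immature cells from 108 to 206 CPM. Ldha, the next enzyme after Pkm, stood at 1248, 1219, 1307 and 1105 CPM in immature and 1419, 1231, 982 and 789 CPM in Gdf5-positive cells. Among lactate genes none of 5 was called in any chondrocyte stage of the Glut3f/+ mutant, and in DCKO only Ldhb, down in late cells. In DCKO Gdf5-positive cells Slc16a1 rose and Ldha and Slc16a3 fell (20.1% of all genes called). In Sfrp2-positive cells Ldha and Slc16a3 fell in the Glut3f/+ mutant (7.66%) and Slc16a3 in DCKO (12.05%). In late over immature cells, where 32.1%, 42.0%, 39.3% and 48.1% of all genes were called, 1, 1, 2 and 1 of 5 lactate genes rose, the exporter Slc16a3 in each, and Ldhb fell in DCKO. HIF targets went both ways there, with 5 up and 3 down of 14, 6 and 6 of 14, 2 and 8 of 17 and 4 and 8 of 17.

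To see whether cells of one type share one level, the summed CPM of the 9 enzymes was taken in single cells thinned to 3000 UMIs. Its limits of 8000 and 3000 CPM were chosen after seeing the data. The spread was wider in mutant cartilage: the upper over the lower quartile was 1.91, 2.11, 3 and 2.5 in immature, 1.71, 1.91, 2.27 and 2.08 in matrix-rich and 1.75, 1.88, 2.55 and 2.64 in late cells. Gdf5-positive cells gave 2.08, 2.38, 2.29 and 2 and Sfrp2-positive cells 2, 2.33, 2.20 and 2, with neither mutant above the E14.5 control. Myogenic cells had the lowest ratio of these types in each library, at 1.64, 1.70, 1.54 and 1.55. Before thinning, myogenic cells of the controls and the Glut3f/+ mutant gave 1.49, 1.44 and 1.43. Few UMIs of the members remain in a cell thinned to 3000 UMIs, so every ratio and share here includes counting noise. Its size was not tested. Cells of at least 8000 CPM made up 19.05, 28.1, 39.6 and 37.8% of late and 17.9, 14.47, 25.5 and 17.4% of immature cells. In Gdf5-positive cells their share was 30.1, 12.3, 12.7 and 7.66%, lower in each E14.5 library than at E13.5. The DCKO interval (4.44 to 12.1) overlapped that of the E14.5 control (9.71 to 15.3). Intervals of these shares are binomial over the cells of a single library and measure no spread between animals. Cells under 3000 CPM made up 12.8% (9.98 to 16.1), 23.4% (19.95 to 27.2), 27.7% (24.1 to 31.6) and 27.9% (24.9 to 31.0) of immature cells. Among immature cells, high cells were thus most frequent in the library of the Glut3f/+ mutant, while the intervals of the low shares of the 3 E14.5 libraries overlapped.

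**Figure D4:**
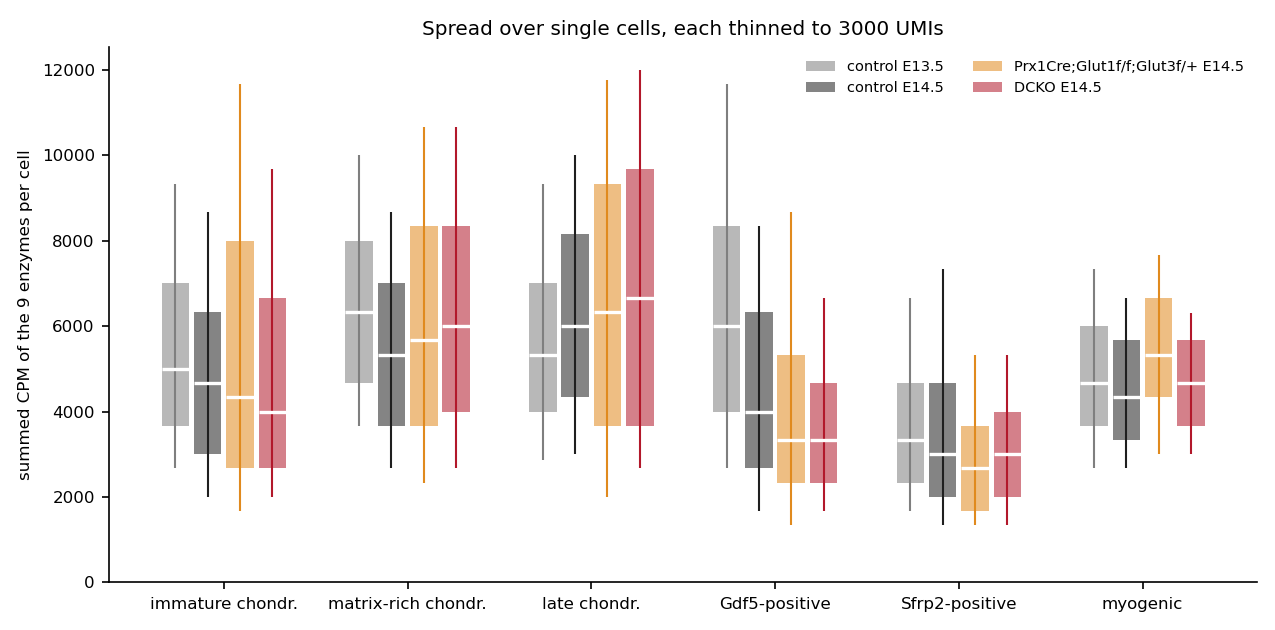
Summed CPM of the 9 enzymes in single cells thinned to 3000 UMIs, in 6 cell types of the 4 libraries; boxes span the 25th to 75th and lines the 10th to 90th percentiles. Boxes of mutant chondrocytes are taller than those of controls, and those of myogenic cells are not.

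The upper and lower 25% of matrix-rich cells by this sum, a split also chosen after seeing the data, were then compared to ask which other genes go with a high pathway. Each group held 145, 823, 763 and 883 cells, and ties at the limits were kept by cell order. Members define the split and are not counted. Over all genes 20.9%, 21.6%, 25.4% and 22.6% were called between upper and lower cells. HIF targets outside glycolysis rose in 4 of 6, 8 of 15, 14 of 17 and 13 of 16 tested, and 0, 1, 1 and 0 fell. Bnip3, one of these targets, gave 1.36 (0.77 to 1.99), 1.35 (1.11 to 1.59), 2.30 (2.05 to 2.55) and 2.08 (1.84 to 2.33). Its ratios were higher in both mutants than in the controls, though the E13.5 and DCKO intervals overlapped. The split itself was not equally wide: median sums were 9667, 8333, 10333 and 10333 CPM in upper and 3667, 2667, 2667 and 3000 CPM in lower cells. The part of this in differences between libraries was not tested. Slc2a1 gave 0.87, 0.60, 1.46 and 1.34 and Ldha 1.19, 1.19, 1.66 and 1.76. Vegfa gave -0.08, 0.10, 1.16 and 0.81, near 0 in the controls. Mki67, a gene of dividing cells, went the other way, at -0.43 (-1.01 to 0.14), -1.004 (-1.28 to -0.73), -0.86 (-1.16 to -0.57) and -0.88 (-1.18 to -0.59), the first across 0. Of reference genes 0 of 7, 0 of 8 and 0 of 8 were called in the first 3 libraries, and in DCKO Hprt rose and Tbp fell, of 8. Upper cells held median UMIs of 7617, 9334, 10701 and 9974 against 8322, 7638, 7333 and 7614, with mitochondrial UMIs of 2.37%, 1.77%, 1.88% and 1.84% against 2.78%, 2.35%, 2.76% and 2.31%. Matn1 gave 0.70, 0.35, -0.21 and -0.13, above 0 in the controls and below 0 in the mutants. Fos, a dissociation gene, gave 0.57, -0.23, -0.65 and -0.21. The part of these was not tested.

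Pearson correlation over 36 sums of a type in a library, which share cells' libraries and types and so are not independent, gave a description of which genes follow the members. Of 4812 genes, Ldha came closest to the members' mean (r 0.97), then Mif (0.96), Fam162a (0.95) and Pfkl (0.93). Between members, Aldoa went with Pgk1 (0.94), Gapdh with Pkm (0.93) and Pgk1 with Pgam1 (0.91). Tpi1 and Eno1 had r 0.36 over all sums, and 0.81, 0.50, 0.62 and 0.93 within the libraries (10, 9, 9 and 8 sums). The genes nearest to Aldoc were Bnip3 (0.85), Fam89a (0.84) and Slc39a14 (0.84), and its nearest member was Pgk1 (0.80). Eno2 stood apart, with -0.28 to 0.25 to the other members.

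The members are spread over 7 chromosomes, and only Eno2, Tpi1 and Gapdh are neighbours, within chr6:124760053-125166467 (0.406 Mb). Over the 36 sums Tpi1 had r 0.59 with Gapdh and 0.25 with Eno2. Promoters were read in the 250 bases before each RefSeq start for ACGTG or GCGTG, the core letters to which HIF can bind, on either strand. Of 15 promoters of the 9 members, 11 (73.3%) had at least 1 match, against 38.6% of 32851 promoters, and 5 (33.3%) had at least 2, against 16.7%. The palindrome CACGTG occurred in none of the members' promoters and 6.02% of all. Windows of a gene can overlap and share their matches, as an Aldoa pair and an Eno1 pair do, so the promoters are not independent. All members but Tpi1 and Eno2 had a match in at least 1 promoter. Each of the words holds the letters CG, and the promoters compared were not matched for their content of C and G. A match is a description of letters and not a bound site. Windows free of annotated exons follow, with matched letters in capitals, for Aldoa (chr7:126799255-126799504, minus strand), Gapdh (chr6:125165774-125166023, minus strand), Pgk1 (chrX:106186850-106187099), Pgam1 (chr19:41911621-41911870) and Eno1 (chr4:150236458-150236707).
Aldoa promoter: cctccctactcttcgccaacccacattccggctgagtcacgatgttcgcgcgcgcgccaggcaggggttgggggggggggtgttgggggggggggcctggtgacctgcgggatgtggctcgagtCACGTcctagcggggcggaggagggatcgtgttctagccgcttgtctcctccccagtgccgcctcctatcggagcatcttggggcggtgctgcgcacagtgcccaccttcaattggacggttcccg
Gapdh promoter: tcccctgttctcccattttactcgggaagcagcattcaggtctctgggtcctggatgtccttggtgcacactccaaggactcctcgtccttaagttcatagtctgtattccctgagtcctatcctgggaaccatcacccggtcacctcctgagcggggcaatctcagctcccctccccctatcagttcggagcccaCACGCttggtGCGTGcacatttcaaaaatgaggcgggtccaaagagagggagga
Pgk1 promoter: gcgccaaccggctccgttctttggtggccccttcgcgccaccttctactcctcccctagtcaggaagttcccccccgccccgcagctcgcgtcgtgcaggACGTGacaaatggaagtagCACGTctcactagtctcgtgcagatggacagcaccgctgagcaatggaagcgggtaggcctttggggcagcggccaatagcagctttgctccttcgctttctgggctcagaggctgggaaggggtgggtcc
Pgam1 promoter: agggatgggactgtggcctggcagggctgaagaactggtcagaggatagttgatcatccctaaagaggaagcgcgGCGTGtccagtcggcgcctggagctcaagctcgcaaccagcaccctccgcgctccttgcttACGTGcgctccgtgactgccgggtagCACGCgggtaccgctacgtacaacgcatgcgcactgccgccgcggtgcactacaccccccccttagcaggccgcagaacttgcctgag
Eno1 promoter: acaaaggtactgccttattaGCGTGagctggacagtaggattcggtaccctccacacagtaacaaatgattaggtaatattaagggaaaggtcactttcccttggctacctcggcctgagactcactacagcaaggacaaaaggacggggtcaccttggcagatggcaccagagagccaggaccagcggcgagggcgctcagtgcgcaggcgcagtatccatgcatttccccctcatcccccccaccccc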

How the data were processed

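Single-cell 3' RNA-seq of 4 libraries was used, 1 per group. The authors deposited filtered count matrices made with Cell Ranger 6.1.2 per the file headers; the deposited values are raw UMI counts per gene and cell, and mm10 is named in the labels. Kept cells had between 200 and 6000 detected genes, with mitochondrial UMIs no more than 10%, and doublets were not removed. Cells were gated on marker UMIs, with thresholds set on marker distributions without member values. Cells passing gates of more than 1 non-mesenchymal class were left out of the types. A cell passing 1 such gate was given that class whatever its mesenchymal markers. Among mesenchymal gates a later one replaced an earlier one, in the order Sfrp2-positive, fibroblast, osteogenic, tendon, chondrocyte and Gdf5-positive. UMIs were summed per type and library and given as CPM with exact Poisson intervals, and ratios carry exact conditional intervals. Shares of cells carry exact binomial intervals over the cells of a library. With 1 library per group, no test across animals was made. Genes are named in the text when they are members, listed genes around them (other isozymes, upper glycolysis, glucose entry, lactate, pyruvate entry, branches, pentose phosphate, HIF targets outside glycolysis, gluconeogenesis, reference genes), gate markers, or the nearest by correlation. Members and lists were chosen with earlier results of these data known. Alternatives were gates, filters, thinning to 3000 UMIs, leaving out the 5% of cells with most UMIs, TMM and DESeq2 scaling, a denominator without mitochondrial, haemoglobin, ribosomal protein and collagen genes, per-cell means, other folds and minimums, other comparison cells, and E13.5 cells with Y-linked UMIs only. Code was tested on simulated data. Tools were Python 3.11.15, numpy 2.4.6, scipy 1.17.1, pandas 2.3.3, matplotlib 3.10.9, R 4.3.3, edgeR 4.0.16 and DESeq2 1.42.0; coordinates are from GENCODE M21 and promoters from RefSeq on GRCm38. Of the pair of identifiers named Aldoa, the one on chromosome 7 was used.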

Additional observations from a re-analysis of the deposited data

Results flagged for a closer look

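A few values in Gdf5-positive cells lay on the other side of 0 from all 3 chondrocyte stages in the same comparison, with every interval apart from 0. By age in the controls, Tpi1 was -0.18 (-0.23 to -0.12) in Gdf5-positive cells and 0.08 to 0.24 in chondrocytes. Against E13.5 cells with Y-linked UMIs alone, this opposition did not hold for immature cells. Tpi1 was then -0.41 in Gdf5-positive and -0.11 (-0.24 to 0.03) in immature cells, with 0.16 in matrix-rich and 0.22 in late cells. For DCKO over control, Aldoa was -0.31 (-0.42 to -0.20) in Gdf5-positive cells and 0.43 to 0.75 in chondrocytes. In the same comparison Pgk1 was -0.25 (-0.37 to -0.13) and 0.29 to 0.37. None of these Gdf5-positive values is a call. Aldoc in the Glut3f/+ mutant over control was also on the other side, at -1.18 (-1.96 to -0.44) in Gdf5-positive cells, a call. Its chondrocyte values were 0.98, 0.10 (-0.09 to 0.29) and 0.45 from immature to late cells, the second with an interval across 0. For all of these, the difference between the types was not tested.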

How the results depend on the processing

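Counts of called members were recomputed under each alternative. The reported counts were 5 of 36 values for matrix-rich over immature cells, 10 of 36 for late cells, 7 of 36 for Gdf5-positive cells, 10 of 54 by age, 6 of 54 for the Glut3f/+ mutant, 4 of 54 for DCKO and 6 of 54 between the mutants. In that order, a limit below 1.5-fold gave 17, 16, 16, 17, 20, 18 and 13, and a limit of 2-fold gave 3, 4, 4, 6, 3, 2 and 3. Thinning to 3000 UMIs gave 3 for matrix-rich, 3 for late and 4 for Gdf5-positive cells, 7 for DCKO and 0 between the mutants. TMM scaling gave 9 for matrix-rich cells, and DESeq2 scaling 9 for matrix-rich and 16 for late cells. With all other chondrocytes as the comparison, matrix-rich cells had 1 and Gdf5-positive cells 12. Without the 5% of cells with most UMIs, late cells had 6. Stricter gates gave 11 for Gdf5-positive cells and 10 for DCKO, and looser gates 4 for Gdf5-positive cells. A minimum of 100 UMIs gave 3 for Gdf5-positive cells, 2 for the Glut3f/+ mutant, 2 for DCKO and 3 between the mutants, and no minimum gave 8 for DCKO. Over all mesenchymal cells at once, of 9 members 1 was called by age, 0 in the Glut3f/+ mutant, 0 in DCKO and 0 between the mutants, where 27.6%, 9.12%, 17.4% and 12.3% of all genes were called. Among the 48 called values, only Aldoc changed sign. Against all other chondrocytes it was -1.03 at E13.5, -0.31 in the Glut3f/+ mutant and -0.42 in DCKO for matrix-rich cells, and for Gdf5-positive cells -1.17 in the E13.5 and -0.49 in the E14.5 control. Looser gates gave 0.77 for DCKO Gdf5-positive over immature cells, -0.77 by age in Sfrp2-positive cells and 0.21 between the mutants in Gdf5-positive cells. After thinning, Gdf5-positive over immature cells gave -0.74 at E14.5 and 1.80 in DCKO, age in immature cells -0.84, and Gdf5-positive cells 0.88 for the Glut3f/+ mutant over control and 1.77 between the mutants. The values of 1.80 and 1.77 rest on 0 DCKO UMIs set to the floor of 3 counts, and the other thinned ones on at most 5 UMIs in either group, so none of them shows a change of direction. The other 62 of 99 recomputed counts stayed within 1.5 times the reported one, and filters of 1000 to 6000 genes and 5% mitochondrial UMIs kept all 48 called values inside their intervals, while a denominator without mitochondrial, haemoglobin, ribosomal protein and collagen genes took 7 of 48 out of theirs. The cause was not tested.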

Other observations

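Genes on branches leaving the pathway were read beside the members in DCKO. Psat1 acts on the route from phosphoglycerate to serine. It stood at 31.8, 28.8, 53.8 and 85.9 CPM in matrix-rich and 48.2, 46.4, 97.4 and 125 CPM in late cells. Psph stood at 26.6, 41.5, 92.2 and 118 CPM in late cells. Of the branch list 3 of 5 rose in DCKO late cells and the other 2, Gpd2 and Bpgm, fell, where 27.6% of all genes were called. In DCKO Gdf5-positive cells 3 of 5 rose and 0 fell (20.1% of all genes). In pyruvate entry, none of 8 was called in DCKO immature cells, and in the pentose phosphate list none of 7, where 13.52% of all genes were called. Of gluconeogenesis genes, Pck2 rose and Fbp1 fell in the same cells, of 5 tested. Of reference genes none of 8 was called there, while Tbp and Hprt fell in DCKO Gdf5-positive and B2m in late cells. Of the 7 pentose phosphate genes, Rpia and Taldo1 fell in DCKO late cells (27.6% of all genes called). Taldo1 also fell in DCKO Gdf5-positive cells (20.1%).

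Erythroid cells, which lie outside the Cre lineage, gave large ratios. Aldoa was 1.31 in the Glut3f/+ mutant and 1.32 in DCKO over control, and Tpi1 1.64 and 1.05. Their globins summed to 767819, 517134 and 542269 CPM in the E14.5 control, the Glut3f/+ mutant and DCKO, and chondrocyte markers in them to 1806, 5045 and 3914 CPM. The part of either was not tested.

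Cycling cells made up 55.6, 37.0, 31.1 and 29.1% of immature and 37.5, 51.7, 35.7 and 27.9% of late cells. Thinned to 3000 UMIs per cell, the shares were 48.8, 31.0, 25.5 and 24.5% and 22.9, 39.2, 24.3 and 16.4%. Mitochondrial UMIs made up 2.67, 2.45, 2.55 and 2.37% of those of immature cells. Their part was not tested.

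Limits are these. With 1 library per group, differences between animals, dissections and runs cannot be told apart from age or genotype. Sex goes with genotype among the E14.5 libraries. Transcript counts say nothing of enzyme amount or flux. Pkm splice forms were not separated, and copies such as Eno1b and Aldoart1 can share reads with members. Gates leave out cells between stages, numbering 771, 824, 1161 and 1729 chondrocytes. DCKO held few Gdf5-positive and myogenic cells, so their intervals are wide. Eno2 in every type, and Aldoc outside matrix-rich and late cartilage, rest on few UMIs. Doublets and ambient RNA were not removed. The deleted parts of Slc2a1 and Slc2a3 are not given in the sources used.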
